A study of Mus musculus with 7 samples.

Results

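The second step of the macrophage response to lipopolysaccharide (LPS) was described as the genes that were still rising, or were falling back, between 2 h and 4 h of LPS. For each gene annotated as protein coding, log2((4 h + 1)/(2 h + 1)) was taken from the normalised read counts, where 1 is the pseudocount. Genes were kept where the mean of the 2 h and 4 h values was at least 50. Of 22021 protein-coding genes in the LPS table, 9228 were kept, and 1760 of these differed by at least 2-fold: 944 were higher at 4 h (rising) and 816 were lower at 4 h (falling). A further 5080 protein-coding genes had reads at 2 h or 4 h but lay under the filter and were not described.

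Bone-marrow-derived macrophages (BMDMs) were grown with M-CSF at 20 ng/mL from wild-type C57BL/6 mice, and were left unstimulated (0 h) or given LPS, the glycolipid that coats Gram-negative bacteria, at 100 ng/mL for 2 h or 4 h. RNA was sequenced from 1 library at each time. In a second experiment adeno-associated virus (AAV) delivered GFP or Shisa3 to BMDMs, which were collected after 48 h, with 2 samples per group (AAV-GFP and AAV-Shisa3). The labels name no LPS for the transduced cells, and by its name in the study's methods the vector carried the broadly active CAG promoter.

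Macrophages sense LPS through Toll-like receptor 4. A first set of genes, driven by stored factors such as NF-κB and AP-1, is transcribed within minutes and includes its own inhibitors. A later set needs proteins made in the first, and type I interferon, secreted and sensed by the same cells through JAK and STAT proteins, drives a large share of it. Fast decay of mRNA, often through AU-rich stretches in the 3′ untranslated region, brings many early transcripts down again.

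With 1 library per time there was no replicate check, so values and folds are given with no p-value for LPS. The 95% exact intervals given for folds cover counting error only. The share of genes kept that were at least 2-fold higher at 4 h than at 2 h was 10.2%, and the share at least 2-fold lower was 8.84%. These are the counts the rule itself fixes, and nothing is read from them. The median log2 ratio over the genes kept was 0.07. The interval of the fold left out no change for all 944 rising and all 816 falling genes, and lay wholly beyond 2-fold for 556 of the rising and 497 of the falling genes. The rule chose these genes from the same reads, so this was largely fixed in advance and is no support for the members. The division at 2-fold has no gap. The rising genes nearest to it were Cd72 with 314 at 2 h and 630.4 at 4 h, 1110008F13Rik with 1160 and 2322, and Mrpl50 with 56.8 and 115. Just outside it were Inpp1 with 72.1 and 145, Rab9 with 585 and 1171, and Zfp110 with 271 and 542. On the falling side Sertad2 (2083 and 1041), Dbndd2 (251 and 125) and Plscr1 (1256 and 627) lay just inside, and Tshz1 (1334 and 667), Fli1 (644 and 322) and Map3k14 (177 and 88.0) just outside.

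The 2 h library stood apart from the other two, and every ratio here is taken against it. It held 7263258 reads, against 15588502 at 0 h and 32659392 at 4 h. Reads of the genome of the mitochondria made up 0.655% of the library at 0 h, 0.0803% at 2 h and 0.427% at 4 h. The gene with the most reads was Lyz2 at 0 h, Rpph1, a non-coding RNA, at 2 h and Actb at 4 h. The 4 h to 2 h ratio moved with the GC content of the transcript. Across the 9214 genes with an annotated transcript Spearman's rho was −0.438, against 0.187 for 2 h over 0 h and −0.101 for 4 h over 0 h; these genes share the same 3 libraries. Median transcript GC was 44.1% for rising genes, 53.9% for falling genes and 50.2% for all genes kept. With the genes in 5 equal bins by GC, 26.6% of the lowest bin were rising and 2.77% falling, and in the highest bin 2.82% were rising and 15.9% falling. When a smooth trend of the ratio on GC was taken out, a step chosen after these values were seen, 519 of the 944 rising genes (55.0%) and 575 of the 816 falling genes (70.5%) still differed by at least 2-fold. The part of GC, depth or RNA quality in the ratios was not tested, and the counts after removal of the GC trend are given beside the groups below. Scaling mattered as well. Under scaling by library totals the median ratio of the genes kept moved by −0.16, from 0.07 to −0.09, with 654 genes rising and 1099 falling.

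**Figure D1:**
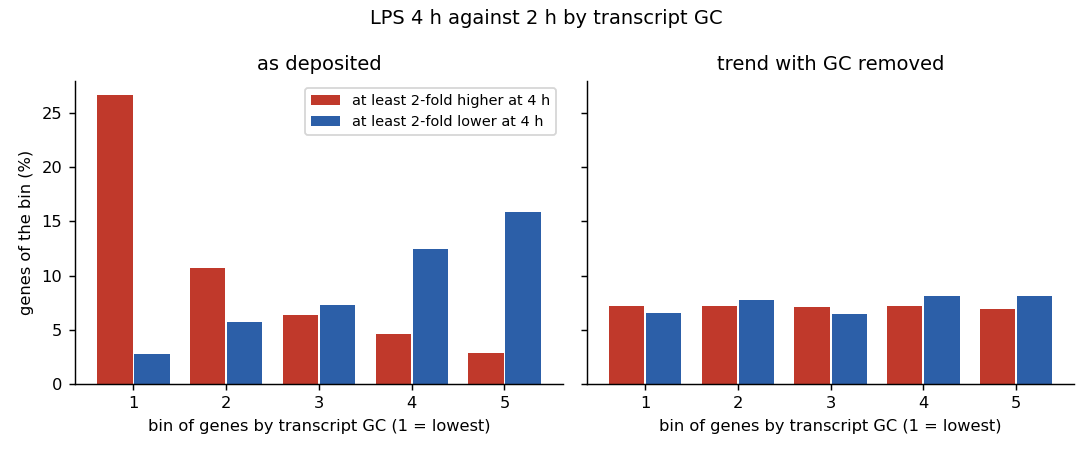
Share of the genes in each of 5 equal bins by transcript GC (bin 1 is the lowest, x axis) that were at least 2-fold higher (red) or lower (blue) at 4 h than at 2 h (y axis, %), as deposited (left) and with the trend on GC removed (right). As deposited the rising share falls from 26.6% to 2.82% and the falling share climbs from 2.77% to 15.9%; with the trend removed each share lies between 6.46% and 8.14% in all bins.

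The macrophage identity of the libraries was clear from its markers. All 8 macrophage markers were present at each time, led by Lyz2, the lysozyme of myeloid cells, with 242489 at 0 h, 224263 at 2 h and 209164 at 4 h. The summed level of 4 B cell markers was at most 1.29, that of 4 NK cell markers at most 6.55 and that of 4 mast cell or basophil markers at most 4.37. Neutrophil markers summed to between 3730 and 7383, highest in the 2 h library, with Ly6g between 1.09 and 2.57. Fibroblast markers summed to between 401 and 679 and dendritic cell markers to between 37.3 and 93.9. The 6 T cell markers summed to between 129 and 426, of which nearly all was Cd4 (127 at 0 h, 247 at 2 h and 92.4 at 4 h) and Lck (0.643, 179 and 285), with Cd3e and Trac at 0 in each library. A change of cell numbers and a change of RNA per cell cannot be told apart in such bulk samples.

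The members were split by what they had done in the first 2 h. Among all genes kept, 18.2% were at least 2-fold higher at 2 h than at 0 h and 12.2% at least 2-fold lower. Of the 944 rising genes, 305 had already been raised at 2 h, 388 lay within 2-fold of 0 h and 251 had been lowered. Of the 816 falling genes, 157 had been raised at 2 h, 533 lay within 2-fold and 126 had already been lowered. Since the 2 h library stands in both steps, a deviation of that library alone moves a gene opposite ways in the 2 steps. The level at 4 h against 0 h does not hold that library, but it shares the 4 h value on which the members were chosen, so its counts are partly fixed by the rule and nothing is read from them. By that measure, where 22.8% of all genes kept were at least 2-fold higher and 15.4% at least 2-fold lower, 547 rising genes were above 0 h by at least 2-fold, 367 lay within 2-fold of it and 30 were below. Among the falling genes 563 were below 0 h by at least 2-fold, 184 lay within 2-fold and 69 stayed above. Of the 251 genes lowered at 2 h and then rising, 216 were back within 2-fold of 0 h at 4 h.

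**Figure D2:**
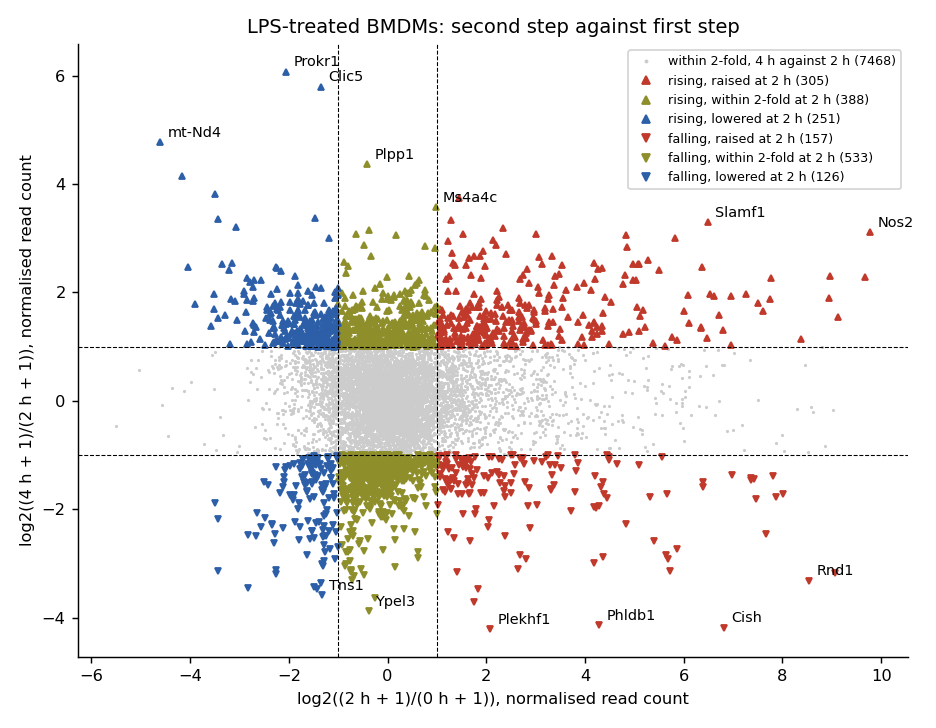
Each point is 1 of the 9228 protein-coding genes kept, with the log2 ratio of 2 h to 0 h on the x axis and of 4 h to 2 h on the y axis (pseudocount 1, 1 library per time). Triangles pointing up are the 944 rising genes and triangles pointing down the 816 falling genes, coloured by whether they were raised (red), within 2-fold (olive) or lowered (blue) at 2 h; dashed lines mark 2-fold.

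The genes raised at 2 h and still rising at 4 h took in Nos2 and other inducible enzymes, and 228 of these 305 genes were rising with the GC trend removed. Nos2, the inducible nitric oxide synthase, stood at 5.79 at 0 h, 5948 at 2 h and 51437 at 4 h. Its second step was 8.65-fold (8.32 to 8.99), and no gene with more reads at 2 h had a larger log2 ratio among those already raised. Slc7a2, which imports the arginine that this enzyme uses, went from 23.2 to 939 and 5687, and Ass1, which remakes arginine from citrulline, from 68.8 to 504 and 1730. These were the 3 rising genes among 11 kept of the nitric oxide, itaconate, arginine and polyamine list, which had a median log2 ratio of 0.91. Its 1 falling gene was Odc1, the ornithine decarboxylase of polyamine synthesis, from 1596 to 797. With the GC trend removed 3 genes of the list were rising and 0 falling, and its median was 0.41. Genes of prostaglandin and leukotriene synthesis moved both ways. Pla2g4a, which frees arachidonic acid, measured 107, 574 and 3745, and Ptgs2, the inducible cyclooxygenase, 24.4, 14233 and 41858. Ptges, a prostaglandin E synthase, measured 17.4, 1037 and 8352, an 8.05-fold second step. The constitutive cyclooxygenase Ptgs1 fell in the same interval, from 539 to 214, as did the prostaglandin receptor Ptger2, from 539 to 127, Alox5, from 78.6 to 37.5, and Lta4h, from 817 to 407. Over the 13 kept genes of the prostaglandin and leukotriene list 3 were rising and 4 falling, with a median log2 ratio of −0.47. With the GC trend removed 2 were rising and 4 falling.

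The largest log2 ratios among genes raised at 2 h belonged to Pydc4, with 99.1 at 0 h, 273 at 2 h and 3675 at 4 h, Mast4 (3.86, 10.9 and 119) and Slamf1 (0.643, 146 and 1443). Mast4 rested on 5 reads at 2 h. Pydc4 belongs to the pyrin-domain (PYHIN) family of interferon-inducible genes, of which 8 of 9 kept members were rising and 0 falling, or 5 rising with the GC trend removed. That family was picked after its values were seen, and its members are close copies between which reads may have been split. Slamf1 encodes a receptor of the SLAM family on leukocytes. Shisa3, the gene carried by the AAV of the second experiment, measured 0.643 at 0 h, which is 1 read, 358 at 2 h and 1725 at 4 h, and its second step was 2.26 on the log2 scale.

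Many interferon-stimulated antiviral genes rose from 2 h to 4 h. All 52 kept members of the list were at least 2-fold above 0 h at 2 h. From there 29 rose by at least 2-fold and 0 fell by as much, and 51 of the 52 ratios were above 0. The median log2 ratio was 1.10, beside 0.07 for all genes kept, and 23 were rising with the GC trend removed. Scaled to library totals 25 were rising and the median was 0.94. Slfn4, a Schlafen protein of myeloid cells, led the list with 46.3 at 0 h, 1369 at 2 h and 9748 at 4 h. Ifi44 followed with 83.6, 323 and 2201, and Ifi205, a PYHIN protein, with 38.6, 3278 and 18059. The list's most abundant member, Rsad2, which encodes viperin, rose from 77776 at 2 h to 169038 at 4 h, a 2.17-fold step (2.15 to 2.20). Isg15, a ubiquitin-like modifier, went from 4614 to 11240 and Oas3, which makes the 2-5A signal that turns on RNase L, from 3374 to 9584. The other 23 stayed within 2-fold, among them Mx1, a GTPase that blocks influenza viruses, which stood at 45752 at 2 h and 55646 at 4 h.

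The guanylate-binding proteins (GBPs) and immunity-related GTPases, which attack the vacuoles of microbes inside cells, were all raised at 2 h. Of the 12 kept genes 7 were still rising and 0 were falling, with a median log2 ratio of 1.26. The same number, 7, were rising with the GC trend removed. Iigp1 went from 2050 at 2 h to 11793 at 4 h, Gbp6 from 1094 to 4973 and Gbp2 from 17094 to 47101. Gbp5, by contrast, was level at 23223 and 23053. GBP genes lie in clusters of close copies, so reads may have been split between them. Irf7, the amplifier of the interferon response, rose from 8202 to 22393. Irf1, an early interferon regulatory factor, went the other way, from 1501 at 0 h to 30233 at 2 h and 10029 at 4 h.

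Promoter windows of the RefSeq table (GRCm38.p6, 250 bases before to 50 after each gene's start) were searched on both strands for the letters GAAA, any 2 bases and GAAA, a core of the interferon-stimulated response element (ISRE), and for GGG, any 3 bases and TTCC, a κB motif. Of the 29 rising antiviral genes, 25 (86.2%) had a window, and 12 of these (48.0%) held the ISRE letters, beside 3.60% of the 7496 windows of all genes kept and 3.49% of all 27025 windows of the table. The list is one of interferon-stimulated genes, so this gap from all genes is not read as a trait of rising. The κB letters stood in 4 of the same 25 windows (16.0%), beside 6.23% of those of all genes kept. Only 69.6% of the antiviral genes that were not rising had a window, and 42.9% of the rising GBPs and immunity-related GTPases. So had 79.1% of the rising genes as a whole, 79.8% of the falling genes and 76.4% of the falling genes raised at 2 h. All these groups lie under the 80% needed, so the search is void for them and no share is given. The 5 GBPs and immunity-related GTPases that were not rising all had a window, and all 5 windows held the ISRE letters. The following 30-base stretches, 5′ to 3′ on the gene's strand with the matching letters in capitals, are examples from rising genes and from genes that fell back, chosen after their values were seen, and they do not show how often either motif occurs in rising or falling genes. A match in capitals is a match of letters and not a measured binding site. The ISRE letters, forward or as their reverse complement, stand in the rising Isg15 (chr4:156200877-156200906, minus strand), Ifit3 (chr19:34583363-34583392, plus strand), Oas3 (chr5:120777715-120777744, minus strand), Ddx60 (chr8:61928024-61928053, plus strand) and Gbp2 (chr3:142620594-142620623, plus strand), and also in Socs1 (chr16:10785600-10785629, minus strand), which fell back. The κB letters stand in Cxcl1 (chr5:90891164-90891193, plus strand), Cxcl3 (chr5:90786018-90786047, plus strand), Tlr2 (chr3:83841762-83841791, minus strand) and Nfkbie (chr17:45555584-45555613, plus strand), all raised at 2 h and falling.
Isg15: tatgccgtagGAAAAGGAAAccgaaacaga
Ifit3: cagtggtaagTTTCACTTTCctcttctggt
Oas3: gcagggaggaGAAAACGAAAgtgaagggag
Ddx60: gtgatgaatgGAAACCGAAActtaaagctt
Gbp2: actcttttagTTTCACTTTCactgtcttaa
Socs1: agacttgccgGAAAGAGAAAccgaaagcgg
Cxcl1: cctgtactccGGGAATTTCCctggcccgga
Cxcl3: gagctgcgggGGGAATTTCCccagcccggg
Tlr2: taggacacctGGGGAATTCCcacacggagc
Nfkbie: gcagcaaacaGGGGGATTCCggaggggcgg

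Chemokines and cytokines divided between the 2 directions. Of 11 kept CC chemokines, which draw monocytes and T cells, 4 were rising and 0 falling, and 2 were rising with the GC trend removed. Ccl5 measured 41.2 at 0 h, 9027 at 2 h and 33285 at 4 h, a 3.69-fold second step, and Ccl7 14.8, 1747 and 4318. Ccl8 went from 100 at 2 h to 298 at 4 h and Ccl12 from 657 to 1472. Among the 7 kept CXC chemokines the interferon-induced Cxcl9 was rising, from 476 to 1814, while the neutrophil attractants Cxcl1, from 839 to 246, and Cxcl3, from 271 to 100, were falling. Of the 7, 1 was rising and 3 were falling with the GC trend removed. Cxcl10 was level, at 65071 and 65591.

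Of the interleukins and colony-stimulating factors 4 of 16 were rising and 1 falling, and 5 and 2 with the GC trend removed. Il1rn, the secreted antagonist of the IL-1 receptor, went from 116 at 0 h to 10888 at 2 h and 42946 at 4 h, whereas Il1b itself was level at 28065 and 25126. Il18, another IL-1 family cytokine, measured 134, 231 and 882. Il19, an IL-10 family cytokine, was at 0 before LPS, 181 at 2 h and 635 at 4 h, and Csf3, the granulocyte colony-stimulating factor, was at 0, 80.8 and 208. Of the 4 rising members only Il18 had stayed within 2-fold of 0 h at 2 h. Clcf1, a cytokine of the IL-6 family, measured 3.22, 245 and 35.9 and was the falling member. In the TNF superfamily list, Tnfsf10, the death ligand TRAIL, rose from 570 to 2573 while 5 of 13 fell: Tnfsf9 (4260 to 1643), Tnfsf4 (179 to 53.8), Tnfsf14 (109 to 40.2), Tnfsf12 (376 to 118) and Tnfsf13 (306 to 135). The list likewise had 1 rising and 5 falling with the GC trend removed. Tnf, at 36109 and 19042, fell just short of the 2-fold limit.

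The genes raised at 2 h and falling by 4 h held the 3 largest falls of all genes kept. Cish, a SOCS protein that damps cytokine receptor signalling, was at 9.65 at 0 h, 1197 at 2 h and 64.7 at 4 h, 18.5-fold lower at 4 h than at 2 h (15.2 to 22.8). Plekhf1 (63.0, 269 and 13.6), Phldb1 (182, 3562 and 201), Shb, an adaptor protein (97.8, 352 and 31.0), and the GTPases Rhob (879, 2955 and 224) and Rnd1 (26.4, 10200 and 1021) moved in the same way. The intervals of all of these folds lay beyond 2-fold, and each stayed beyond it with the GC trend removed. At 4 h Plekhf1, Rhob and Shb were below their 0 h level, while Rnd1 was still far above it. Sphk1, the kinase that makes sphingosine 1-phosphate, was at 0 at 0 h, 537 at 2 h and 58.7 at 4 h, and Errfi1, an inhibitor of the EGF receptor, at 106, 5660 and 639. Among the 157 genes raised at 2 h and falling, 110 still fell by at least 2-fold with the GC trend removed. At 4 h 69 of the 157 were still at least 2-fold above 0 h, 82 lay within 2-fold of it and 6 were at least 2-fold below.

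Among early factors and feedback regulators of the first wave some fell in smaller steps. Of the 21 kept immediate-early factors 6 were falling: Maff (16.7 at 0 h, 500.1 at 2 h and 102 at 4 h), Klf2 (211, 216 and 69.6), Jund (628, 4597 and 1504), Ier5 (959, 2007 and 754), Nr4a1 (57.3, 166 and 75.5) and Junb (1075, 24138 and 11275). With the GC trend removed 4 were falling. Fos, the partner of the JUN proteins in AP-1, was the 1 rising member, with 298, 164 and 610. Of the 18 NF-κB subunits and feedback genes 0 were rising and 3 falling, namely Relb (4835 at 2 h, 2133 at 4 h), Nfkbid (876 and 323) and Nfkbie (4988 and 2420). The median log2 ratio of that list was −0.54, and −0.20 with the GC trend removed, with 2 falling. Nfkbia, the inhibitor IκBα, stayed within 2-fold at 37345 and 25877. Among 9 MAP kinase phosphatases Dusp5 (362 and 178), Dusp3 (1649 and 734) and Dusp22 (164 and 77.7) were falling and Dusp7 (186 and 555) rising. Only 1 of these 3 falling genes had been raised at 2 h, while 2 had stayed within 2-fold of 0 h, and Dusp7 had been lowered. With the GC trend removed 2 of the 3 still fell. Socs1, which blocks JAK kinases, went from 5667 to 2157. Tlr2 fell from 13408 to 4737 while 7 of the 20 Toll-like receptor and adaptor genes were rising, led by Tlr3, the sensor of double-stranded RNA, with 125, 245 and 1736. Tlr7 (3661, 1636 and 3986) and Tlr8 (3458, 1011 and 3484), sensors of single-stranded RNA, dipped at 2 h and were back near their 0 h level at 4 h. With the GC trend removed 4 of the 20 were rising, and with scaling to library totals 4 were rising and 2 falling.

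**Figure D3:**
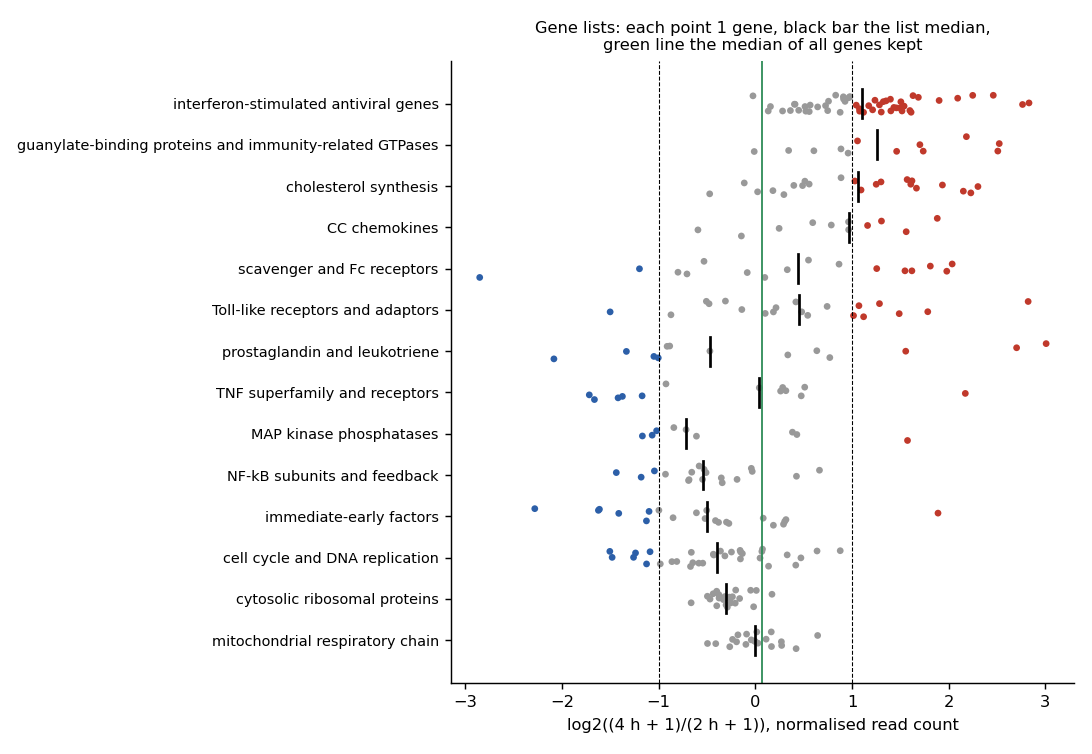
Log2 ratio of 4 h to 2 h (x axis, pseudocount 1) for each kept gene of 14 gene lists (y axis); red points rose and blue points fell by at least 2-fold, grey points lie between, the black bar is the list median and the green line the median of all genes kept, 0.07. Antiviral genes, GBPs and cholesterol synthesis have medians of at least 1.06, and the NF-κB list has a median of −0.54.

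Cholesterol synthesis was another pathway with rising genes. Of 22 kept genes of cholesterol synthesis 12 were rising and 0 falling, with a median log2 ratio of 1.06, and 11 were rising with the GC trend removed. Of the 12, 10 had been within 2-fold of 0 h at 2 h. At 2 h 7 of the 22 had been raised, beside 18.2% of all genes kept, and the summed level of the list was 11698 at 0 h, 26385 at 2 h and 48280 at 4 h. Idi1, which converts the isoprenoid building blocks, measured 116, 181 and 854, and Sqle, the squalene epoxidase, 292, 293 and 1122. Hmgcs1, which makes HMG-CoA, measured 1321, 2566 and 7892, and Sc5d, a late desaturase, 352, 314 and 1401. Ch25h, which makes 25-hydroxycholesterol, a sterol that holds this pathway down, had been raised at 2 h and rose on, with 1.29, 443 and 1399. Scaled to library totals 10 of the 22 were rising.

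Among genes within 2-fold of 0 h at 2 h, large second steps were those of Plpp1, a lipid phosphatase, with 14.8, 10.9 and 246 and only 5 reads at 2 h, and Ms4a4c, a membrane protein of the MS4A family, with 363, 714 and 8495. Hdac9, a histone deacetylase, measured 99.1, 76.4 and 685, Plekhg1 228, 146 and 1242, and Pde5a, the phosphodiesterase that breaks down cGMP, 40.5, 45.9 and 388. These 5 were the largest ratios of the 388 genes within 2-fold at 2 h, of which 173 were rising with the GC trend removed. In the MS4A family, picked after its values were seen, 5 of 7 were rising, or 3 with the GC trend removed.

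The list of scavenger and Fc receptors, which serve uptake, also holds the C-type lectin receptors Clec4e and Clec4n. Of its 16 kept genes 2 were falling, a share near the 8.84% of all genes kept, and 6 were rising: Marco, a scavenger receptor for bacteria (262 at 2 h and 1078 at 4 h), Fcgr4 (2099 and 8285), Fcgr1 (4551 and 15965), Clec4e (11964 and 36774), Msr1 (6049 and 17692) and Fcgr2b (7213 and 17230). With the GC trend removed 6 were rising and 3 falling, and with scaling to library totals 6 and 2. Olr1, the receptor for oxidised LDL, did the opposite, with 7.08 at 0 h, 402 at 2 h and 54.9 at 4 h, and Clec4n fell from 1269 to 553. The complement gene Cfb, which encodes factor B, went from 67.5 to 2347 and 13548.

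The 251 genes lowered at 2 h and rising again were headed by Prokr1 and Clic5, which had 2 and 1 reads at 2 h, so that their ratios of 82.4 and 80.4 carried intervals of 22.7 to 682 and 14.3 to 3185. Next came genes of the mitochondrial genome. Of the 13 mitochondrially encoded protein genes 9 passed the filter, and these 9 were rising, 7 of them with the GC trend removed. The set was picked after its values were seen. mt-Nd4, a subunit of complex I, measured 659 at 0 h, 26.2 at 2 h and 741 at 4 h, mt-Nd2 369, 19.7 and 364, and mt-Cytb, of complex III, 3023, 269 and 3810. In each of these 3 genes the 2 h value was the lowest. Nuclear copies of mitochondrial sequence can take some of these reads. None of the 20 nuclear-encoded respiratory chain genes was rising or falling by 2-fold, with a median log2 ratio of −0.0045. Of 177 kept Zfp-named zinc finger genes, another set picked after its values were seen, 41 were rising and 12 falling, or 22 and 10 with the GC trend removed. Over the 251 genes 118 were rising with the GC trend removed.

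The 533 falling genes within 2-fold of 0 h at 2 h and the 126 already lowered made up the rest of the falling genes. Ypel3 measured 970 at 0 h, 745 at 2 h and 49.5 at 4 h, and Zdhhc14, a palmitoyltransferase, 933, 780 and 61.4. Gpr162 (496, 299 and 29.3), Tbc1d16 (327, 203 and 20.6) and Samd4 (196, 140 and 14.1) followed. These 5 stayed within 2-fold of 0 h at 2 h and lost most of their level by 4 h. Among those already lowered at 2 h were Tns1, a focal adhesion protein (1906, 756 and 61.9), Chek2, a checkpoint kinase (320, 118 and 9.78), Engase, which cuts N-glycans (751, 105 and 8.69), Slco2b1, an organic anion transporter (508, 179 and 15.8), and Zfp704 (1479, 576 and 55.4). The transcription factors Cebpa, with 991, 175 and 61.4, and Mef2c, with 1250, 515 and 171, fell in both steps. So did Tgfbr1, with 2091, 828 and 264, and the mRNA decay factor Zfp36l1, with 929, 435 and 124. Smad3, which carries the TGF-β signal, fell mainly in the second step, with 199, 135 and 21.7. Of 32 kept cell cycle and DNA replication genes 6 were falling and 0 rising, among them the replication helicase genes Mcm2 (85.2 at 2 h and 29.9 at 4 h) and Mcm7 (205 and 71.7) and the mitotic activator Cdc20 (408 and 170). With the GC trend removed 4 were falling and 1 was rising. Of the 533 genes within 2-fold at 2 h 359 still fell by at least 2-fold with the GC trend removed, and of the 126 lowered at 2 h 106 did.

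**Figure D4:**
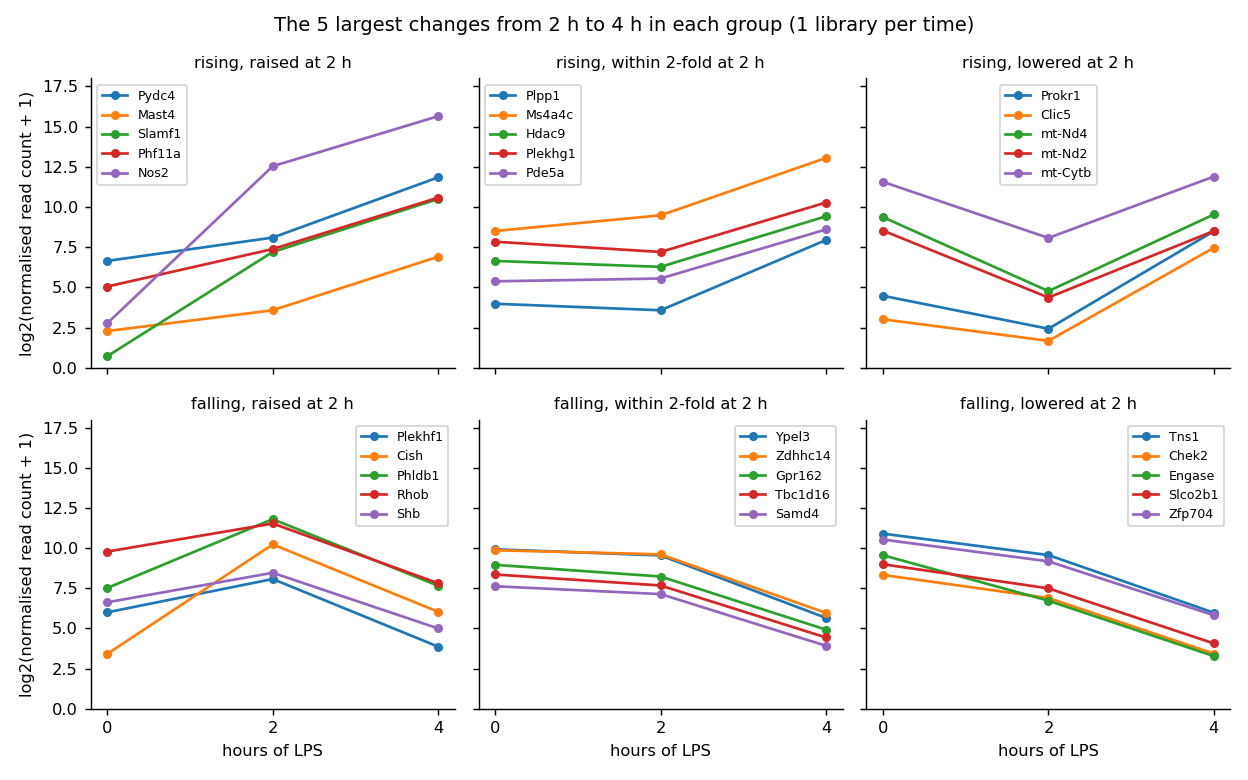
Time courses of the 5 genes with the largest ratio between 2 h and 4 h in each of 6 groups, with hours of LPS on the x axis and log2(normalised read count + 1) on the y axis, 1 library per time. Genes of the upper row rise from 2 h to 4 h, and the mitochondrial genes at upper right return at 4 h to their 0 h level; genes of the lower row fall.

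Of 24 cytosolic ribosomal protein genes and 11 heat shock protein genes 0 were rising or falling, with median log2 ratios of −0.30 and 0.07. Of 15 housekeeping genes 3 were rising and 0 falling, with a median of 0.47. The rising genes took 6.88% of all reads at 2 h and 17.5% at 4 h, and the falling genes 6.89% and 2.21%. At 0 h these shares were 6.19% and 6.69%.

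The groups also differed in transcript structure, which the rule did not use, although its ratio moved with transcript GC. The AU-rich letters TATTTAT were present in the 3′ untranslated region of 45.7% of the falling genes raised at 2 h, 39.8% of the rising genes and 29.3% of all genes kept. Of the falling genes within 2-fold at 2 h, 22.3% held them, of those falling in both steps 34.7%, and of all falling genes 28.7%. Among the rising genes the share was 37.5% for those raised at 2 h, 40.3% for those within 2-fold and 41.8% for those lowered. The median length of that region was 1087 bases in the falling genes raised at 2 h, 1482 in the rising genes, 1029 in all genes kept and 903 in the falling genes within 2-fold, and a longer region has more places for a match. Falling genes raised at 2 h had a median of 6 exons, as had genes lowered at 2 h and rising, against 9 for all genes kept. The role of length and GC in these shares was not tested.

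The AAV experiment gave a measure of the same genes in samples that the rule did not use. Of 11218 genes tested with limma on log2(TPM + 1), 2.23% were higher and 4.10% lower in AAV-Shisa3 than in AAV-GFP at a Benjamini-Hochberg adjusted p under 0.05, and the median log2 difference of all genes was −0.10. Of the 891 rising genes tested 42 were higher and 30 lower. Of the 725 falling genes tested 25 were higher and 88 lower, or 12.1% lower. Of the 270 tested genes that were raised at 2 h and rising, 32 (11.9%) were higher and 5 (1.85%) lower. Of the 129 raised at 2 h and falling, 11 (8.53%) were higher and 3 (2.33%) lower. Of the 111 that fell in both steps 0 were higher and 27 (24.3%) lower, and of the 485 falling ones that had been within 2-fold at 2 h, 14 were higher and 58 (12.0%) lower. The 244 lowered at 2 h and rising gave 2 higher and 9 lower, and the 377 within 2-fold and rising 8 and 16. Genes are not independent replicates, and no test was made of a group against the rest. Leaving out any 1 sample leaves 1 in a group, so how many calls would hold cannot be told from such fits. In them the median log2 difference was 0.08 to 0.15 for genes raised at 2 h and rising. It was −0.42 to −0.35 for genes falling in both steps, beside −0.12 to −0.08 for all genes tested. With all 4 samples, no member was called without limma's trend or without the filter on TPM. At an unadjusted p under 0.05, 80 of the 270 genes raised at 2 h and rising were higher and 29 lower, beside 8.21% and 19.8% of all genes tested. With each sample centred on its median the calls were 61 higher and 11 lower for rising genes and 39 and 56 for falling genes, beside 3.65% higher and 2.05% lower of all genes tested.

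Among the called members Ch25h was the largest rise, with 15.1 and 14.5 TPM in AAV-GFP and 63.1 and 49.2 TPM in AAV-Shisa3, a log2 difference of 1.85 ± 0.14 (SE, limma adjusted p = 0.0113). Olr1, which fell back from 2 h to 4 h of LPS, stood at 0.840 and 1.69 TPM against 5.85 and 7.69 TPM. Vegfa, the vascular growth factor, had 5.39 and 5.97 against 19.0 and 20.8 TPM, and Plaur, the urokinase receptor, 84.2 and 89.2 against 223 and 230 TPM; both were falling genes under LPS. In each of these the samples of the groups did not overlap, which also held for 18.2% of all genes tested in the upward direction and 41.2% downward. Of the 29 rising antiviral genes tested 8 were higher and 0 lower, with Rsad2 at 252 and 244 against 658 and 569 TPM, and Ifit1bl1 at 28.3 and 23.5 against 79.5 and 56.8 TPM. Others of that list did not pass: Isg15 had a log2 difference of −0.04 and Slfn4 of −0.12. Of the 7 rising GBPs and immunity-related GTPases Iigp1, Gbp4 and Gbp9 were higher and 0 were lower.

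The 12 rising genes of cholesterol synthesis were divided, with 2 higher and 3 lower. Fdps, the farnesyl diphosphate synthase, had 34.3 and 29.0 TPM in AAV-GFP and 105 and 73.6 TPM in AAV-Shisa3, a log2 difference of 1.45, and Idi1 differed by 0.96. Hmgcs1 had 19.8 and 17.3 against 8.93 and 8.81 TPM, a difference of −0.98, with Stard4, a sterol carrier, at −1.08 and Msmo1 at −0.68. The lowest of the called members was U90926 at −1.49, a gene rising under LPS. Below the AAV-GFP samples were further the falling genes Eps8 (−1.44), an adaptor of actin, Slc45a4 (−1.43), a solute carrier, Tns1 (−1.34) and Ttyh2 (−1.21). Several leading genes of the LPS second step did not pass the threshold. Nos2 had a log2 difference of 0.38 (adjusted p = 0.243, limma), Ptges of −0.45 (adjusted p = 0.398, limma), Rnd1 of −0.03 and Phldb1 of −0.05. Shisa3 itself measured 7.88 and 10.9 TPM in AAV-GFP and 12.3 and 17.8 TPM in AAV-Shisa3, a log2 difference of 0.63 (adjusted p = 0.138, limma). The samples of the groups did not overlap, but the difference did not pass the threshold. How the counted transcript relates to the one delivered is not given in the sources used here, and the study's own measures of Shisa3 mRNA and protein were not analysed here.

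**Figure D5:**
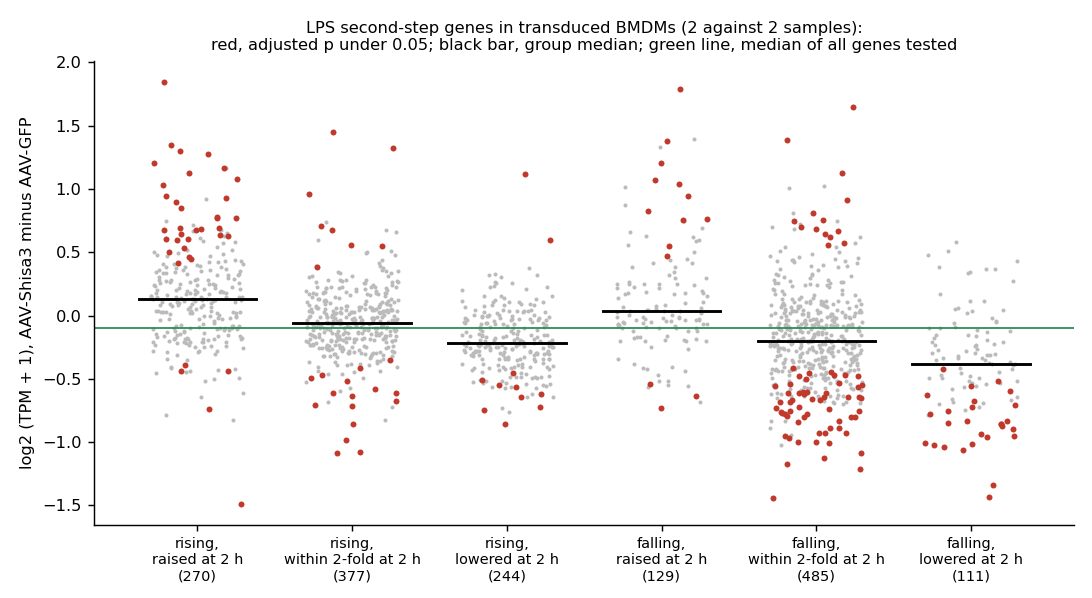
Log2 difference of TPM + 1 between AAV-Shisa3 and AAV-GFP (y axis, 2 samples per group) for the members tested, in 6 groups by their course under LPS (x axis, number tested in brackets). Red points have a limma adjusted p under 0.05, black bars are group medians and the green line is the median of all genes tested, −0.10; the highest group median, 0.13, is that of genes raised at 2 h and rising, and the lowest, −0.38, that of genes falling in both steps.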

How the data were processed

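The LPS values deposited by the authors are a signal, counts scaled by library, since all values were whole multiples of 1 step (0.643 at 0 h, 2.18 at 2 h, 0.543 at 4 h, no recovered read further than 0.0000775 from whole). For AAV the deposited values were read as TPM from their sums, and their depth is unknown. The submitters' processing notes name mm9; aligner, counter and use of strand are not given in the sources used here. All sample columns were used. Members and lists were chosen with earlier results of these data known. Counting intervals were exact (95%), on recovered reads. Limma (3.58.1, R 4.3.3) with trend tested log2(TPM + 1) for genes averaging 1 TPM or more, adjusted after Benjamini and Hochberg. In data simulated for the AAV comparison on 11082 genes all 91 genes changed by 1 and all 105 changed by 2 on the log2 scale were found, with 8 false calls, and 0 calls were made with no gene changed. The simulated spread depended on the mean level alone, as limma's trend assumes. The simulation therefore checks the code and does not measure power or false calls in the real samples. No source says that the 2 samples of a group came from separate animals, so p-values measure the spread between samples. Named genes were the 15 largest rises and falls, the 5 largest per group, list members beyond 2-fold with others as contrast, the neighbours of the threshold, Shisa3 and the 10 largest AAV calls each way, of which a part is printed. Transcript features came from GENCODE M21 and promoters from RefSeq, both on GRCm38, matched by identifier or name; no deposited coordinate was used. The GC trend was removed by lowess (span 0.4). Other settings were pseudocounts, filters, centring, library totals, edgeR (4.0.16) TMM and DESeq2 (1.42.0) factors, all biotypes, a replicate block and leaving out samples. A few genes are not reported here.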

Additional observations from a re-analysis of the deposited data

How the results depend on the processing

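The LPS counts stayed within 1.5 times under pseudocounts of 0.1 and 5, centring, TMM, DESeq2 factors and all biotypes. A mean of at least 10 gave 467 genes lowered at 2 h and rising and 230 falling in both steps. A mean of at least 200 gave 449 falling genes in all, 101 lowered and rising, 289 within 2-fold and falling, and 45 falling in both steps. With no filter 2246 were rising (941 within 2-fold, 927 lowered at 2 h) and 1928 falling (578 raised, 1014 within 2-fold, 336 lowered). Library totals gave 189 raised and rising, 205 within 2-fold and rising, and 453 falling in both steps. GC removal, added after the data were seen, gave 655 rising and 681 falling genes in all, with 229 rising genes within 2-fold and 133 lowered at 2 h. For 207 named or list genes beyond 2-fold, 1783 of 2027 ratios under these settings stayed within the counting interval, 244 moved out of it and 0 changed sign. For 12 genes within 2-fold or at its edge, 5 of 118 ratios changed sign: Cxcl10 (0.01) was −0.02 with centring and −0.15 with library totals and with GC removal, and Gbp5 (−0.01) was 0.01 with TMM and 0.02 with DESeq2 factors. For AAV, no trend or no filter gave 0 calls in every group. Leaving out 1 sample gave 0 to 3 rising genes higher and 0 lower, and 0 to 2 falling genes higher and 0 lower. Centring gave 11 rising genes lower, and 39 falling genes higher and 56 lower. AAV samples with the same number share only that number (correlation of deviations 0.188 over 11218 genes, 2 pairs). With the replicate block 63 of 891 rising genes were higher and 62 lower, and 38 of 725 falling genes higher and 134 lower. Over all 11218 genes tested the block gave 424 higher and 851 lower. By course under LPS the block gave 46 higher and 17 lower for genes raised and rising, 15 and 26 for those within 2-fold and rising, 2 and 19 for those lowered and rising, 19 and 6 for those raised and falling, 18 and 90 for those within 2-fold and falling, and 1 and 38 for those falling in both steps. No paired analysis was possible for LPS because each time has 1 library. Depth at 2 h limits the ratios of low genes.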
